A study of Mus musculus with 30 samples.

Results

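The genes described are Sox9, Krt7, Krt8, Krt18, Krt19, Krt23, Epcam, Spp1, Cdh1 and Prom1, a set of biliary markers and epithelial keratins, measured in the livers of mice lacking PPARα, CREB3L3 or both. A probe set was taken when the probe annotation gave it exactly 1 gene symbol and that symbol was one of these 10 genes. Of the 35556 probe sets on the array, 10 met this rule, and they represent 9 of the 10 genes. Prom1 has 2 probe sets, and both are shown. No probe set carries the name of Spp1, the gene of osteopontin, in the annotation used here, so Spp1 was not analysed here.

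Keratins are the intermediate filament proteins of epithelial cells and assemble as pairs of a type I and a type II chain. Hepatocytes build their filaments from keratin 8 (type II) and keratin 18 (type I), whereas the epithelium of the bile ducts (cholangiocytes) additionally makes keratin 7 and keratin 19. Sox9 is a transcription factor of bile duct and liver progenitor cells, Epcam and Prom1 encode surface proteins of biliary and progenitor cells, and Cdh1 encodes E-cadherin, the adhesion protein of adherens junctions. PPARα is the nuclear receptor that drives fatty acid oxidation in the fasted liver, and CREB3L3 is a membrane-bound transcription factor of hepatocytes and enterocytes.

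The question of the study was how the 2 factors act together in the liver, so wild-type (WT) mice were set beside mice lacking 1 factor (PPARα−/− or CREB3L3−/−) or both (PPARα/CREB3L3−/−, the double knockout) in 2 regimens. Mice either went without food for 16 h or received a ketogenic diet, rich in fat and poor in carbohydrate, for 4 days with free access to it until they were killed. All were males of about 8 weeks on a C57BL/6 background, and the double knockout came from interbreeding the single knockout lines. Each of the 8 groups holds 4 livers, except for 3 in both PPARα−/− groups, and each of the 30 livers has its own array. The alleles remove the genes in every tissue rather than in hepatocytes alone, and WT livers of a regimen serve as controls for all 3 knockouts of that regimen, so these comparisons are not independent of each other. A comparison of the ketogenic diet with fasting also compares fed with fasted mice.

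Values are log2 intensities from Robust Multichip Averaging (RMA), so that a difference of 1 is a doubling of signal. Array medians ran from 4.22 to 4.38, and arrays of the same group correlated at 0.978 to 0.990. Creb3l3 signal separated all livers with and without the gene, at 9.49 to 11.28 against 4.29 to 5.36. The PPARα allele deletes part of its gene, while probes are spread over the whole transcript, so the Ppara signal is no direct check of the genotype. It was at most 9.35 in fasted livers labelled as lacking PPARα against at least 9.51 in the others, and at most 7.95 against at least 8.01 on the ketogenic diet. In the limma fit a probe set counts as changed, or called, when its P is below 0.001 with a fold of more than 1.2. Adjusted p values are by Benjamini-Hochberg and cover every probe set of the array.

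In fasted livers Krt23 was the 1 of the 10 probe sets called against WT, and it was lower wherever PPARα was missing. Krt8 and Krt18 in the fasted double knockout missed the threshold, at adjusted p of 0.0178 and 0.0383 in limma. In fasted PPARα−/− livers 0 of 10 were higher and 1 was lower, against 2.23% and 1.77% of all probe sets. In fasted CREB3L3−/− livers 0 of 10 changed in limma (1 had an unadjusted P under 0.05), against 1.39% of all probe sets, and in fasted PPARα/CREB3L3−/− livers 0 were higher and 1 was lower, against 4.19% and 2.79%. On the ketogenic diet 6 of 10 probe sets, of 6 genes, were higher in CREB3L3−/− than in WT livers and 0 were lower, against 12.8% and 8.56% of all probe sets. Their median difference was 1.14 on the log2 scale there, against -0.06 over all probe sets. The values of CREB3L3−/− and WT livers did not overlap for 7 of the 10, against 30.8% of all probe sets. In the fast such counts were 2 of 10 for PPARα−/− (18.5% of all probe sets), 1 for CREB3L3−/− (8.3%) and 3 for the double knockout (16.8%). On the diet they were 2 for PPARα−/− (24.7%) and 3 for the double knockout (21.5%).

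In ketogenic PPARα−/− livers 1 of 10 was higher (Krt8) and 1 lower (Krt23), against 6.11% and 4.81% of all probe sets. In ketogenic PPARα/CREB3L3−/− livers 1 was higher (Cdh1) and 1 lower (Krt23), against 7.11% and 6.87%. The median difference was 0.03 in the first and 0.26 in the second comparison, on the log2 scale. Against CREB3L3−/− livers on the same diet, 4 of 10 probe sets were lower in the double knockout and 0 higher, against 11.7% and 8.72% of all probe sets. The interaction subtracts the CREB3L3−/− minus WT difference from the double knockout minus PPARα−/− difference. It was negative for 3 of 10 and positive for 0 on the ketogenic diet, against 10% and 5.94% of all probe sets. In the fast it was called for 0 of 10 in limma (1 had an unadjusted P under 0.05), against 0.762% of all probe sets.

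**Figure D1:**
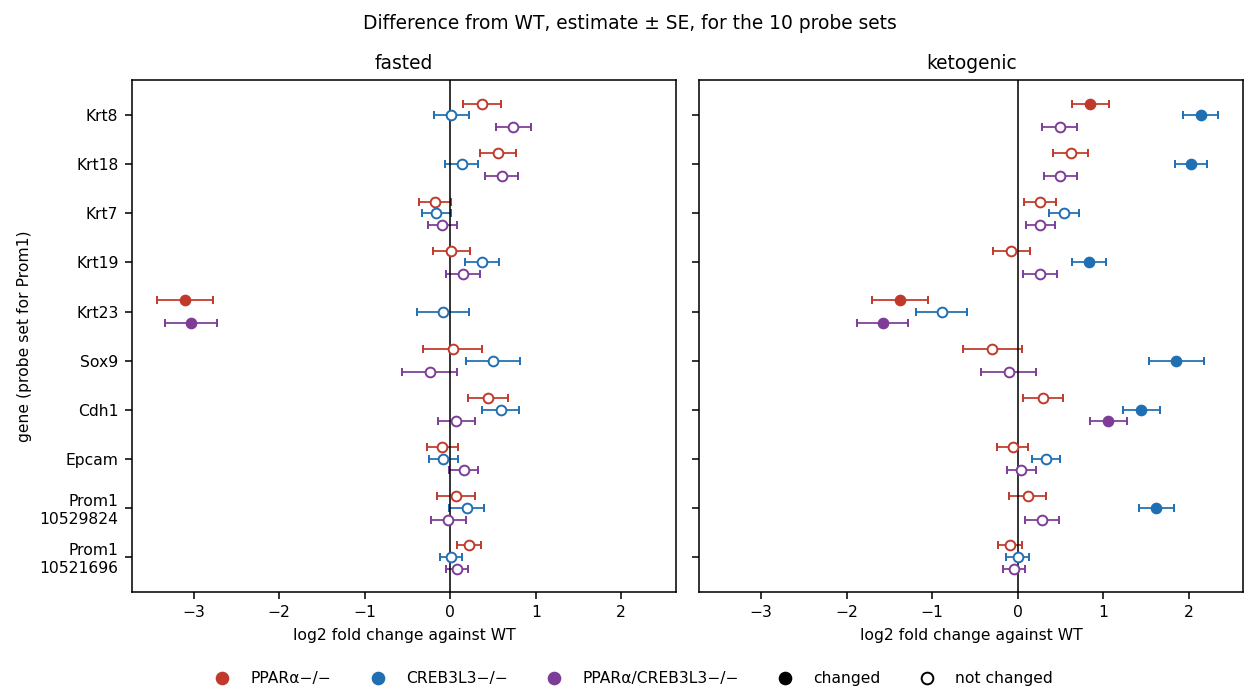
Log2 fold change against WT (horizontal axis, estimate ± SE from limma) of the 10 probe sets (vertical axis) in PPARα−/− (red), CREB3L3−/− (blue) and PPARα/CREB3L3−/− (purple) livers after the fast (left) and the ketogenic diet (right), with filled points for those called changed. Krt23 stands at -3.10 and -3.03 in the fasted livers without PPARα, and the 6 filled blue points on the right run from 0.83 for Krt19 to 2.14 for Krt8.

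Krt8 and Krt18 encode the keratin pair of the hepatocyte. Their genes lie on mouse chromosome 15, on opposite strands and head to head, with start sites 23874 bases apart and 0 protein-coding genes wholly between them in the RefSeq annotation of GRCm38.p6. Because both moved together in these livers, the 250 bases before each start site are shown, from RefSeq on GRCm38.p6 and written 5′ to 3′ on the strand of the gene. The window of Krt8 is chr15:102004343-102004592 on the minus strand and that of Krt18 is chr15:102027966-102028215 on the plus strand. Capitals mark AGGTCA, the half-site of nuclear receptors, searched on both strands.
Krt8: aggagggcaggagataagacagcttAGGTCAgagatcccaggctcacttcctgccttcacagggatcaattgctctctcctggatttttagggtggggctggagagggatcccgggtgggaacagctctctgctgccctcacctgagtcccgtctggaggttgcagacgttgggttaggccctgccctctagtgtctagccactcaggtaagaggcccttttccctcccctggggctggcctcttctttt
Krt18: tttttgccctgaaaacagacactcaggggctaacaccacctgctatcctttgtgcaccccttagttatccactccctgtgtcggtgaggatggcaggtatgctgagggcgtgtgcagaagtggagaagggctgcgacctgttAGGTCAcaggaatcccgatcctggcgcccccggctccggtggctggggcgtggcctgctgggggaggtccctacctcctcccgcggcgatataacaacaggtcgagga
The half-site stands at -225 to -220 from the start of Krt8 and at -108 to -103 from that of Krt18. It is present in 14% of 32851 promoter windows of this length, so its presence here is a description of the sequence. The PPAR response element DR1, a direct repeat of that half-site with a spacer of 1 base, is in 0.0335% of windows and in 0 of the 9 windows found for these genes. The 9 windows belong to 7 of the 10 genes, with 2 each for Prom1 and Spp1, and Sox9, Krt19 and Cdh1 were not searched. The CREB-type element TGACGTCA is in 1.55% of windows and also in 0 of the 9.

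In fasted livers Krt8 read 9.44, 9.50, 9.53 and 9.62 in WT and 9.43, 9.44, 9.64 and 9.64 in CREB3L3−/− mice. It read 9.48, 9.95 and 10.26 in PPARα−/− mice and 10.01, 10.25, 10.26 and 10.51 in PPARα/CREB3L3−/− mice. WT and CREB3L3−/− livers shared one narrow range, and all 4 double knockout livers lay above it. The double knockout differed from WT by 0.74 (SE 0.21, adjusted p = 0.0178), which missed the threshold, and CREB3L3−/− livers by 0.01 (SE 0.21). At this same value the double knockout was called without WT ketogenic replicate 1 or 4, double knockout ketogenic replicate 4 or PPARα−/− fasted replicate 1, none of which enters the difference except through the estimate of the spread. Krt8 differed by 0.72 (SE 0.21, adjusted p = 0.0265) between fasted double knockout and CREB3L3−/− livers, and at that value was called without WT ketogenic replicate 1 or 4. In bulk liver a change in the number of cells of a type and a change in RNA per cell cannot be told apart, and this holds for every gene below.

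With the ketogenic diet Krt8 read 9.66, 9.99, 10.26 and 10.95 in WT and 12.01, 12.21, 12.59 and 12.62 in CREB3L3−/− livers. It read 10.82, 11.05 and 11.33 in PPARα−/− and 10.25, 10.78, 10.85 and 10.97 in PPARα/CREB3L3−/− livers. Every CREB3L3−/− liver was above every other liver of the study, whereas 1 WT liver lay within the range of the PPARα−/− livers and 2 within that of the double knockout. From the highest, the group means ran 12.36 in ketogenic CREB3L3−/−, 11.07 in ketogenic PPARα−/−, 10.71 in ketogenic and 10.26 in fasted double knockout, 10.22 in ketogenic WT, 9.90 in fasted PPARα−/−, 9.54 in fasted CREB3L3−/− and 9.52 in fasted WT livers, and neighbours after the first pair overlapped. Krt8 was 4.42-fold higher in CREB3L3−/− than in WT livers, or by 2.14 on the log2 scale (SE 0.21, adjusted p = 3.45e-09). In PPARα−/− livers it was higher by 0.85 (SE 0.22, adjusted p = 0.00697), and in double knockout livers the difference was 0.49 (SE 0.21, adjusted p = 0.0928) and not called. The call in PPARα−/− livers was lost without PPARα−/− replicate 1 or 2 or WT replicate 2, 3 or 4, at differences of 0.67 to 0.87. Without WT replicate 1, the liver at 10.95, the double knockout was called higher, by 0.74.

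Krt18 in fasted livers read 9.69, 9.94, 9.97 and 10.03 in WT, and 9.98, 9.98, 10.10 and 10.11 in CREB3L3−/− mice. It read 10.33, 10.44 and 10.63 in PPARα−/− mice and 10.11, 10.49, 10.70 and 10.75 in the double knockout. Livers of both genotypes without PPARα lay above all fasted WT livers, but the differences of 0.56 (SE 0.21, adjusted p = 0.117) and 0.60 (SE 0.19, adjusted p = 0.0383) were not called. After the ketogenic diet Krt18 read 9.68, 10.00, 10.20 and 10.85 in WT and 11.79, 11.89, 12.51 and 12.64 in CREB3L3−/− livers. It read 10.63, 10.80 and 10.99 in PPARα−/− and 10.46, 10.67, 10.74 and 10.85 in double knockout livers. The CREB3L3−/− livers again stood above all others, and the highest WT value came from the same mouse that had the highest WT value of Krt8. The difference from WT was 2.03 (SE 0.19, adjusted p = 2.48e-09) in CREB3L3−/− livers. PPARα−/− livers differed by 0.62 (SE 0.21, adjusted p = 0.0376) and double knockout livers by 0.50 (SE 0.19, adjusted p = 0.0651), neither of them called. Without WT ketogenic replicate 1 both were called, at 0.85 and 0.72, and so was the fasted double knockout, at the same 0.60.

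Both keratins rose with CREB3L3 ablation on the diet where PPARα was present, and no rise was called without PPARα or in the fast. Against PPARα−/− livers the ketogenic double knockout was at -0.36 (SE 0.22, adjusted p = 0.488) for Krt8. For Krt18 it was at -0.12 (SE 0.21, adjusted p = 0.86). Fasted CREB3L3−/− livers differed from WT by 0.01 for Krt8 and by 0.13 (SE 0.19, adjusted p = 0.86) for Krt18. Tests of the difference itself follow. The interaction on the ketogenic diet was -2.50 (SE 0.30, adjusted p = 4.65e-07) for Krt8 and -2.15 (SE 0.28, adjusted p = 1.43e-06) for Krt18. Against CREB3L3−/− livers the double knockout stood at -1.65 (SE 0.21, adjusted p = 3.65e-07) on the log2 scale for Krt8 and at -1.53 (SE 0.19, adjusted p = 3.72e-07) for Krt18. The effect of CREB3L3 ablation in the ketogenic minus the fasted state was called for 3 of 10 probe sets, all higher, against 7.99% of all probe sets. It was 2.13 (SE 0.29, adjusted p = 3.54e-06) for Krt8 and 1.90 (SE 0.27, adjusted p = 6.5e-06) for Krt18.

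The log2 difference of Krt8 minus Krt18 in the same liver measures whether the pair changed equally. It ran from -0.50 to -0.19 in fasted WT livers and from -0.02 to 0.10 in WT livers on the ketogenic diet. In fasted CREB3L3−/− livers it ran from -0.67 to -0.34 and on the ketogenic diet from -0.05 to 0.42, so that in both genotypes the 2 regimens did not overlap. The shift from fasting to the diet was 0.42 in WT and 0.65 in CREB3L3−/− livers, each with a two-sided exact permutation p of 0.0286, the smallest that 4 against 4 livers allow. In PPARα−/− livers the shift was 0.83 (two-sided exact permutation p = 0.1, the smallest that 3 against 3 allow). In double knockout livers, whose regimens overlapped at -0.49 to -0.10 and -0.21 to 0.23, it was 0.28 (two-sided exact permutation p = 0.0857, adjusted 0.228). Adjusted over the 14 comparisons made this way, the p of WT and of CREB3L3−/− livers is 0.133. PPARα−/− livers differed from WT on the diet by 0.23 (two-sided exact permutation p = 0.0286, adjusted 0.133). Between CREB3L3−/− and WT livers on the diet the difference was 0.12 (two-sided exact permutation p = 0.314, adjusted 0.4).

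**Figure D2:**
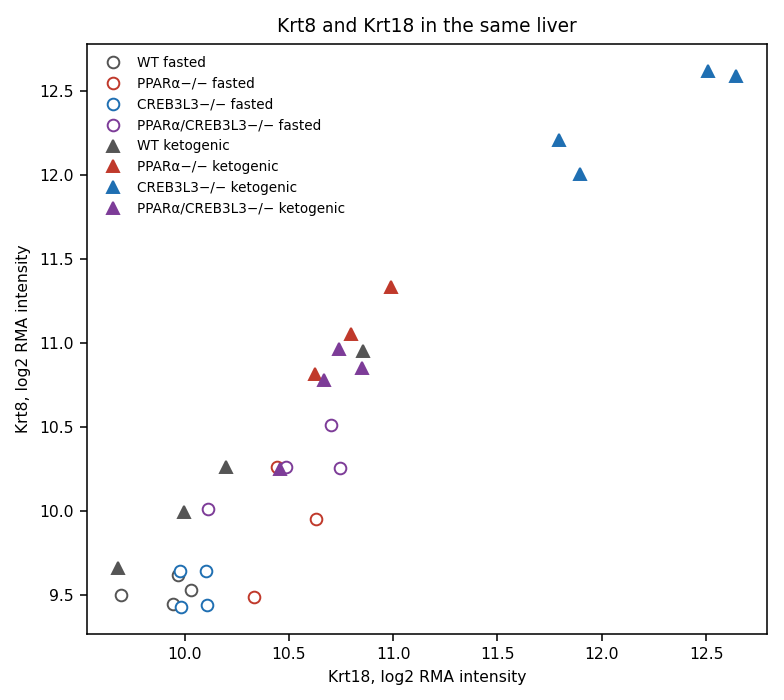
Krt8 (vertical axis) against Krt18 (horizontal axis) in each of the 30 livers, both as log2 RMA intensity, with open circles for fasted and filled triangles for ketogenic livers and colours for genotypes. The 4 ketogenic CREB3L3−/− livers stand apart at the upper right, at 12.01 or more for Krt8 and 11.79 or more for Krt18, and at a given Krt18 level most triangles lie above the circles.

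Krt23 encodes a type I keratin of simple epithelia. The 250 bases before its start site, from RefSeq on GRCm38.p6 at chr11:99493121-99493370 on the minus strand, are shown because this gene changed with PPARα, and hold neither AGGTCA nor TGACGTCA on either strand.
Krt23: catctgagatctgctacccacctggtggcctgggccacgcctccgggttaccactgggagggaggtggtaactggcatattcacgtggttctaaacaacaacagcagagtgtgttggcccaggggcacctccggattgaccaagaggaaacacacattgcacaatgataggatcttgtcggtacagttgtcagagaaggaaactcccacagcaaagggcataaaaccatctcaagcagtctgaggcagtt
In fasted livers Krt23 read 5.55, 6.50, 6.62 and 6.97 in WT and 6.10, 6.22, 6.27 and 6.70 in CREB3L3−/− mice. It read 2.91, 3.32 and 3.68 in PPARα−/− and 3.23, 3.28, 3.42 and 3.60 in double knockout livers. The 7 fasted livers without PPARα were all below the lowest of the 8 with it and below the median of their arrays. Krt23 fell by 3.10 on the log2 scale (SE 0.33, adjusted p = 4.31e-07) in PPARα−/− livers, although no detection call was used here and whether the signal left in these livers was above background was not tested. Their mean stood at the 34.6th percentile of the probe sets, and that of fasted WT livers at the 71.0th, so the size of the difference may be limited by the low signal. In double knockout livers it fell by 3.03 (SE 0.30, adjusted p = 9.78e-08) against WT and by 2.94 (SE 0.30, adjusted p = 2.16e-07) against CREB3L3−/− livers. It was the 1 of 10 probe sets called between the fasted double knockout and CREB3L3−/− livers, where 2.37% of all probe sets were lower and 2.91% higher. CREB3L3−/− livers differed from WT by -0.09 (SE 0.30, adjusted p = 0.953). Between the fasted double knockout and PPARα−/− livers the difference was 0.08 (SE 0.33), and 0 of 10 probe sets were called there in limma, with 0 at an unadjusted P under 0.05, against 1.67% of all probe sets. Of the markers of other cells, 0 of 12 hepatocyte and 1 of 15 macrophage genes changed in the same fasted PPARα−/− livers. Over all genes 3.11% were higher and 2.58% lower there. The mean level of the macrophage markers was 6.71 to 6.73 in these livers, against 6.30 to 6.59 in fasted WT livers, without overlap. That of the hepatocyte markers was 11.79 to 11.84 against 11.67 to 11.79. The part of other cells in the result was not tested.

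With the diet, Krt23 read 4.62, 4.90, 5.86 and 6.03 in WT and 3.92, 4.39, 4.46 and 5.07 in CREB3L3−/− livers. It read 3.81, 3.84 and 4.26 in PPARα−/− and 3.38, 3.62, 3.76 and 4.33 in double knockout livers. WT livers were spread over more than 1 log2 unit, and livers of both genotypes without PPARα lay below all of them. PPARα−/− livers were at -1.38 against WT (SE 0.33, adjusted p = 0.00313) and double knockout livers at -1.58 (SE 0.30, adjusted p = 0.000264). In CREB3L3−/− livers it was -0.89 (SE 0.30, adjusted p = 0.0251), which was not called. The call in PPARα−/− livers was lost without WT replicate 1 or 2 or PPARα−/− replicate 1 or 2, at -1.31 to -1.15. The effect of PPARα ablation in the ketogenic minus the fasted state was 1.72 (SE 0.46, adjusted p = 0.0201), the 1 of 10 probe sets called in that comparison, against 4.83% of all probe sets. The PPARα−/− means were dim in both regimens, at 3.30 and 3.97, while the WT mean was 6.41 in the fast and 5.35 on the diet, so this difference cannot be told apart from a limit set by low signal. This call was lost on leaving out any 1 of 22 of the 30 arrays, at values of 1.48 to 1.81. In CREB3L3−/− livers Krt23 fell by 1.86 (SE 0.30, adjusted p = 1.39e-05) from fasting to the diet. WT livers were at -1.06 (SE 0.30, adjusted p = 0.0321), which was not called. The difference between those 2 responses was -0.80 (SE 0.43, adjusted p = 0.212) and was not called either.

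Krt7 and Krt19 encode the keratins that mark bile ducts against hepatocytes, and their signals were dim. Krt19 was below the median of its array in all 15 fasted livers and in 6 of the 15 ketogenic livers, none of which was CREB3L3−/−. In fasted livers it ran from 3.48 to 4.14, and the 4 CREB3L3−/− livers, at 3.91, 4.04, 4.06 and 4.14, lay above WT livers at 3.52, 3.63, 3.74 and 3.75 without the difference of 0.38 (SE 0.20, adjusted p = 0.485) being called. On the ketogenic diet it read 3.90, 3.96, 4.07 and 4.40 in WT and 4.42, 4.78, 4.79 and 5.65 in CREB3L3−/− livers. In PPARα−/− livers it read 3.61, 4.11 and 4.30, and in double knockout livers 3.93, 4.41, 4.49 and 4.54. The CREB3L3−/− livers lay above all WT livers, by a narrow margin at the lower end, and overlapped with the double knockout. The difference from WT was 0.83 (SE 0.20, adjusted p = 0.00167). Without CREB3L3−/− replicate 2, the liver at 5.65, it was 0.58, and without WT replicate 1 or 2 it was 0.79 or 0.77, so that each of the 3 decides the call. The interaction for Krt19 on the diet was -0.50 (SE 0.29, adjusted p = 0.252).

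Krt7 ran from 3.74 to 4.97 over the 30 livers and was called in 0 comparisons of limma. On the ketogenic diet it read 3.99, 4.15, 4.17 and 4.29 in WT and 4.40, 4.58, 4.84 and 4.97 in CREB3L3−/− livers, with no overlap. The difference was 0.55 (SE 0.17, adjusted p = 0.0164) and missed the threshold. PPARα−/− and double knockout livers on the diet, at 3.95 to 4.67 and 4.09 to 4.58, overlapped with both.

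**Figure D3:**
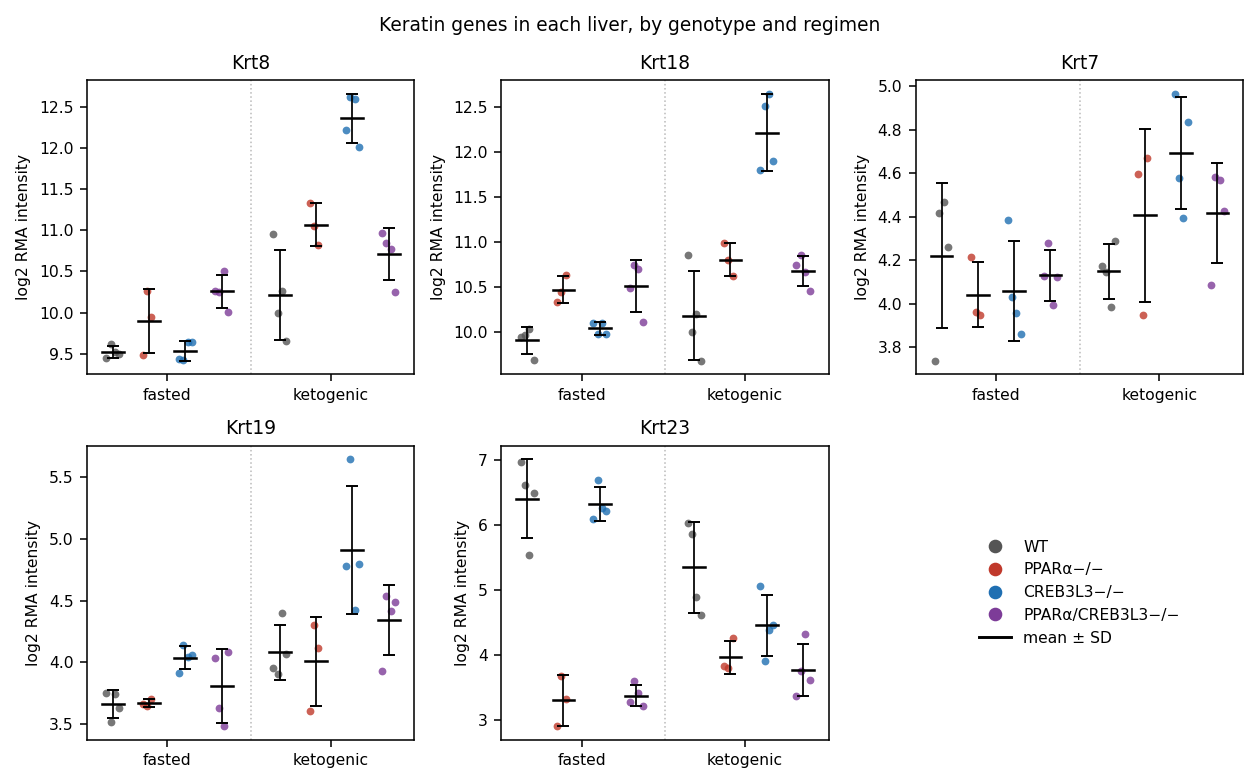
Log2 RMA intensity (vertical axis, scaled to each gene) of Krt8, Krt18, Krt7, Krt19 and Krt23 in each liver (points), by regimen (horizontal axis) and genotype (colours), with the mean ± SD of each group in black (n = 3 or 4). Krt8 and Krt18 reach 11.79 or more in the ketogenic CREB3L3−/− livers alone, and Krt23 is at 2.91 to 3.68 in the fasted livers without PPARα against 5.55 to 6.97 in those with it.

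Sox9, the transcription factor of the biliary lineage, varied widely between fasted livers. It read 5.93, 6.58, 6.76 and 6.92 in fasted WT and 5.67, 6.40 and 7.67 in fasted PPARα−/− livers. It read 6.56, 6.87, 7.30 and 7.46 in fasted CREB3L3−/− and 6.16, 6.29, 6.33 and 6.45 in fasted double knockout livers. These ranges overlapped, except between CREB3L3−/− and double knockout livers, whose difference of -0.74 (SE 0.32, adjusted p = 0.188) was not called.

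With the ketogenic diet Sox9 read 6.33, 6.46, 6.54 and 6.81 in WT and 7.87, 8.19, 8.75 and 8.76 in CREB3L3−/− livers. It read 6.10, 6.30 and 6.32 in PPARα−/− and 6.02, 6.12, 6.21 and 7.38 in double knockout livers. The CREB3L3−/− livers were above all others of the study, and 1 double knockout liver, at 7.38, stood above WT while its 3 group mates were below it. Sox9 was 3.62-fold higher in CREB3L3−/− than in WT livers, or by 1.86 on the log2 scale (SE 0.32, adjusted p = 3.64e-05). The double knockout stood at -1.96 (SE 0.32, adjusted p = 2.04e-05) against CREB3L3−/− livers. The interaction was -1.66 (SE 0.47, adjusted p = 0.00927) and missed the threshold. Without double knockout replicate 3, the liver at 7.38, it was -1.98 and was called. It was also called at -1.84 without CREB3L3−/− replicate 4, and at the same -1.66 without fasted PPARα−/− replicate 2 or 3, which enter through the estimate of the spread alone. From fasting to the diet Sox9 rose by 1.34 (SE 0.32, adjusted p = 0.00129) in CREB3L3−/− mice, whereas WT mice differed by -0.01 (SE 0.32). The difference between those 2 responses was 1.36 (SE 0.45, adjusted p = 0.0313) and was not called.

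Cdh1, the gene of E-cadherin, is made by hepatocytes and bile ducts alike. In fasted livers it read 7.16, 7.92, 8.05 and 8.24 in WT and 7.99, 8.38, 8.66 and 8.71 in CREB3L3−/− mice. It read 8.09, 8.33 and 8.42 in PPARα−/− and 7.43, 7.79, 8.01 and 8.42 in double knockout mice. The ranges of the 3 knockouts overlapped with that of WT, and the largest of their differences from it, 0.59 (SE 0.22, adjusted p = 0.227) in CREB3L3−/− livers, was not called. The interaction in the fast was -0.96 (SE 0.32, adjusted p = 0.254). With the ketogenic diet Cdh1 read 8.05, 8.14, 8.33 and 8.67 in WT and 9.22, 9.86, 9.90 and 9.99 in CREB3L3−/− livers. It read 8.35, 8.70 and 8.72 in PPARα−/− and 9.22, 9.31, 9.34 and 9.58 in double knockout livers. Both genotypes without CREB3L3 were above all livers with it on this diet.

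Cdh1 rose by 1.45 (SE 0.22, adjusted p = 5.44e-06) in CREB3L3−/− and by 1.06 (SE 0.22, adjusted p = 0.000542) in double knockout livers against WT. Its interaction was -0.68 (SE 0.32, 95% interval -1.34 to -0.02, adjusted p = 0.139) and not called, and the double knockout differed from CREB3L3−/− livers by -0.38 (SE 0.22, adjusted p = 0.195). Against PPARα−/− livers the double knockout was at 0.77 (SE 0.24, adjusted p = 0.0745), and 0 of 10 probe sets were called in that comparison (1 had an unadjusted P under 0.05), against 2.42% of all probe sets. From fasting to the diet Cdh1 rose by 1.31 (SE 0.22, adjusted p = 1.86e-05) in CREB3L3−/− and by 1.45 (SE 0.22, adjusted p = 1.16e-05) in double knockout mice. In WT mice the difference was 0.46 (SE 0.22, adjusted p = 0.24). The effect in the ketogenic minus the fasted state was 0.85 (SE 0.31, adjusted p = 0.0484) for CREB3L3−/− and 0.99 (SE 0.31, adjusted p = 0.0319) for double knockout mice, and not called. Without WT fasted replicate 4 both were called, at 1.08 and 1.22, and without fasted double knockout replicate 2 the second was called, at 1.16.

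Epcam, an adhesion protein of the biliary epithelium, ran from 3.57 to 4.67 over the 30 livers and lay below the median of its array in 28 of them. It was called in 0 comparisons of limma. In ketogenic CREB3L3−/− livers it read 3.92, 3.96, 4.27 and 4.67, against 3.68, 3.92, 3.93 and 3.95 in WT, and the difference was 0.33 (SE 0.17, 95% interval -0.01 to 0.68, adjusted p = 0.143).

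The 2 probe sets of Prom1, a pentaspan membrane protein of progenitor cells, did not behave alike. Probe set 10521696 ran from 2.64 to 3.28 in all 30 livers and was called in 0 comparisons. Probe set 10529824 read 2.25, 2.39, 2.47 and 2.50 in ketogenic WT and 3.34, 3.56, 4.58 and 4.60 in ketogenic CREB3L3−/− livers. It read 2.37, 2.53 and 2.66 in PPARα−/− and 2.59, 2.62, 2.71 and 2.82 in double knockout livers on the diet. The fasted livers ran from 2.32 to 2.98. The 4 CREB3L3−/− livers on the diet were above all others, and 2 of them were above the median of their array, whereas all 26 other livers were below it. On this probe set the difference from WT was 1.62 (SE 0.20, adjusted p = 2.98e-07), the interaction was -1.46 (SE 0.30, adjusted p = 0.000481), and the effect of CREB3L3 ablation in the ketogenic minus the fasted state was 1.43 (SE 0.29, adjusted p = 0.000444). Against CREB3L3−/− livers the double knockout stood at -1.34 (SE 0.20, adjusted p = 7.12e-06). For the other probe set the 95% interval of the difference between CREB3L3−/− and WT livers was -0.27 to 0.27 (adjusted p = 1), and which of the 2 follows the Prom1 transcript was not tested.

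**Figure D4:**
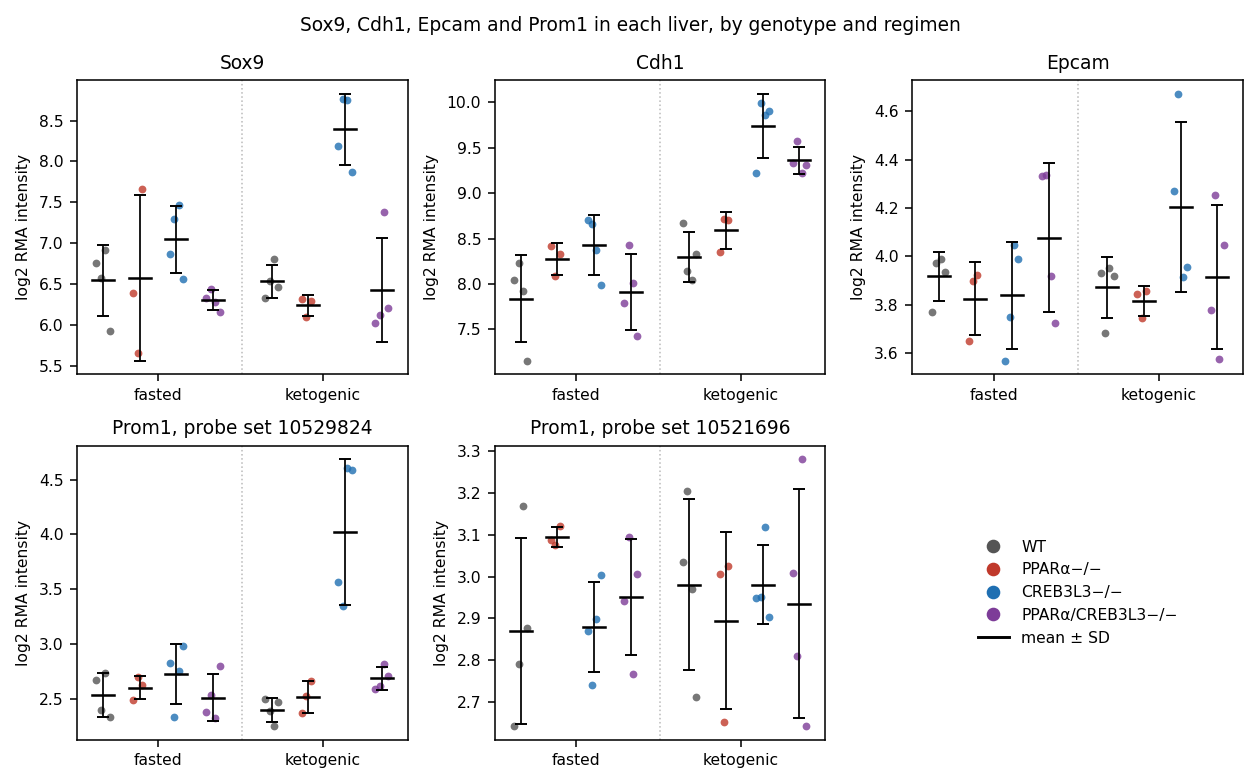
Log2 RMA intensity (vertical axis, scaled to each panel) of Sox9, Cdh1, Epcam and both Prom1 probe sets in each liver (points), by regimen (horizontal axis) and genotype (colours), with the mean ± SD of each group in black (n = 3 or 4). Ketogenic CREB3L3−/− livers are highest for Sox9 (7.87 to 8.76) and for Prom1 probe set 10529824 (3.34 to 4.60), and for Cdh1 the double knockout (9.22 to 9.58) is also above WT (8.05 to 8.67).

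In WT mice 0 of 10 probe sets changed between the regimens in limma (4 had an unadjusted P under 0.05), against 4.25% of all probe sets. Krt8 was at 0.69 (SE 0.21, adjusted p = 0.0387), with no overlap between fasted and ketogenic WT livers, and Krt23 at -1.06 (SE 0.30, adjusted p = 0.0321). The call for Krt8 was made without WT ketogenic replicate 4, at 0.88. That for Krt23 was made without WT ketogenic replicate 1 or 2 or WT fasted replicate 3, at -1.35 to -1.23. In CREB3L3−/− mice 6 of 10 were higher on the diet than in the fast and 1 lower, against 14.3% and 11.1% of all probe sets. The 6 were Sox9, Krt8, Krt18, Krt19, Cdh1 and Prom1 on probe set 10529824, and Krt8, at 2.82 (SE 0.21, adjusted p = 1.84e-11), had the largest difference. In PPARα−/− mice 1 of 10 was higher, Krt8 at 1.17 (SE 0.24, adjusted p = 0.000757), and 0 lower, against 5.74% and 4.46%. In the double knockout 1 was higher, Cdh1, and 0 lower, against 7.42% and 7.09%, and the effect of the double knockout in the ketogenic minus the fasted state was called for 0 of 10 in limma (2 had an unadjusted P under 0.05), against 8.26%.

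Other genes of the bile duct were followed by a list of cholangiocyte markers without the members above, of which 18 of 20 were measured and 11 of the 18 had a mean below the median of all probe sets. In ketogenic CREB3L3−/− livers 8 of the 18 were higher than in WT and 0 lower, with a median difference of 0.59 on the log2 scale, against -0.05 over all 18820 genes. Over all genes 16.7% were higher and 11.9% lower in that comparison. Ddr1, a collagen receptor, was higher by 2.56 (SE 0.16, adjusted p = 2.14e-12), the RNA-binding protein gene Bicc1 by 2.33 (SE 0.16, adjusted p = 8.8e-12) and the tight junction claudin Cldn4 by 2.56 (SE 0.20, adjusted p = 1.1e-10). The mean level of the list was 4.93 to 5.07 in these livers and 3.93 to 4.42 in the other ketogenic livers. In fasted PPARα−/− livers 1 of 18 was higher, Slc10a2, the bile acid importer of cholangiocytes, at 1.79 (SE 0.34, adjusted p = 0.00145), against 3.11% of all genes. The mean level of the list was 4.16 to 4.27 in those livers, against 3.99 to 4.15 in fasted WT livers. The ketogenic interaction was negative for 6 of 18 and positive for 0, against 13% and 8.2% of all genes.

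Of the 15 keratin partners and desmosome genes, 6 were higher in ketogenic CREB3L3−/− livers and 0 lower, against 16.7% and 11.9% of all genes. Their median difference was 0.19. Vim, the mesenchymal filament protein vimentin, was higher by 3.01 (SE 0.26, adjusted p = 5.8e-10) and Ppl, the filament linker periplakin, by 2.11 (SE 0.14, adjusted p = 7.1e-12). In fasted livers 3 of the 15 were higher without PPARα, against 3.11% of all genes, with Eppk1, the linker epiplakin, at 1.42 (SE 0.24, adjusted p = 0.000521) and Ppl at 1.07 (SE 0.15, adjusted p = 4.76e-05). In fasted double knockout livers 4 were higher, against 5.81% of all genes, with Ppl at 1.99 (SE 0.14, adjusted p = 2.29e-10).

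Of the 21 measured genes of adherens, tight and gap junctions, 7 were higher and 5 lower in ketogenic CREB3L3−/− livers. Over all genes 16.7% were higher and 11.9% lower. The α-catenin gene Ctnna1 was higher by 0.80 (SE 0.09, adjusted p = 2.89e-08). The gap junction connexins of hepatocytes were lower, Gjb1 at -0.91 (SE 0.12, adjusted p = 4.4e-07) and Gjb2 at -1.21 (SE 0.17, adjusted p = 1.2e-06). In ketogenic PPARα−/− livers 3 were higher and 3 lower, against 6.45% and 7.15% of all genes.

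The Notch and Hippo pathways are known to shape biliary fate in the liver. Of 16 Notch genes, 3 were higher and 1 lower in ketogenic CREB3L3−/− livers, against 16.7% and 11.9% of all genes. The ligand Jag1 was at 1.75 (SE 0.21, adjusted p = 1.35e-07) and the ligand Dll1 at -0.92 (SE 0.21, adjusted p = 0.000924). Of 18 measured Hippo genes and YAP targets, 10 were higher and 1 lower, against the same 16.7% and 11.9%, with a median of 0.43. The YAP targets Ccn2 and Ankrd1 were higher by 3.34 (SE 0.28, adjusted p = 3.89e-10) and 3.12 (SE 0.29, adjusted p = 2.19e-09). For Spp1 itself no value is given. Of the 10 receptor subunits of osteopontin 7 were higher and 0 lower, against the same 16.7% and 11.9% of all genes. Cd44 was at 3.35 (SE 0.22, adjusted p = 7.34e-12) and the integrin αv gene Itgav at 1.87 (SE 0.15, adjusted p = 1.22e-10). The ketogenic interaction was negative for 6 of the 18 Hippo genes and for 6 of the 10 receptor subunits, against 13% of all genes.

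Markers of other liver cells moved in the same ketogenic CREB3L3−/− livers, and their part in the results above was not tested. Over all genes 16.7% were higher and 11.9% lower there than in WT. Of 12 measured hepatocyte markers 10 were lower and 0 higher, and their mean level was 9.52 to 10.67 against 11.49 to 11.74 in WT livers. The tyrosine breakdown enzymes Hpd and Fah were lower, at -4.26 (SE 0.41, adjusted p = 3.53e-09) and -1.80 (SE 0.08, adjusted p = 5.48e-15). Of 15 macrophage markers 9 were higher and 0 lower, at a mean level of 8.20 to 8.56 against 6.45 to 7.45 in WT. Of 12 stellate cell and fibroblast markers 7 were higher and 0 lower, at 7.40 to 7.85 against 6.57 to 6.68. All 18 measured mitosis genes were higher, at 7.10 to 8.32 against 3.41 to 4.48.

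Of 10 neutrophil markers, 8 of them below the median of all probe sets on average, 3 were higher in these livers. The mean level of the list was 3.87, 4.12, 4.23 and 6.01 in the single livers, against 3.25 to 4.16 in WT. Of 10 markers of sinusoidal endothelium 3 were higher and 1 lower, at 8.11 to 8.49 against 8.14 to 8.33. Both counts stand beside 16.7% of all genes higher and 11.9% lower. The 2 WT livers with the highest macrophage levels on the diet, replicates 1 and 2 at 7.45 and 7.09, also had the highest mitosis levels, at 4.28 and 4.48. Replicate 1 is the WT liver with the highest Krt8. Replicate 2, with Krt8 at 9.99, lay below replicate 3 at 10.26, whose macrophage and mitosis levels were 6.45 and 3.72. A relation between these levels was not tested. In ketogenic PPARα−/− and double knockout livers 6 of 12 hepatocyte markers were lower in each and 0 higher, against 7.15% and 10.3% of all genes lower. In the double knockout 2 of 18 cholangiocyte markers were higher, Sstr2, a somatostatin receptor, at 1.24 and Bicc1 at 0.61, against 7.44% of all genes. In the double knockout 8 of 10 endothelium markers were lower and 1 higher, against 10.3% and 7.44% of all genes, at a mean level of 7.25 to 7.84. The endothelium list was also below WT in ketogenic PPARα−/− livers, at 7.68 to 7.86 against 8.14 to 8.33.

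**Figure D5:**
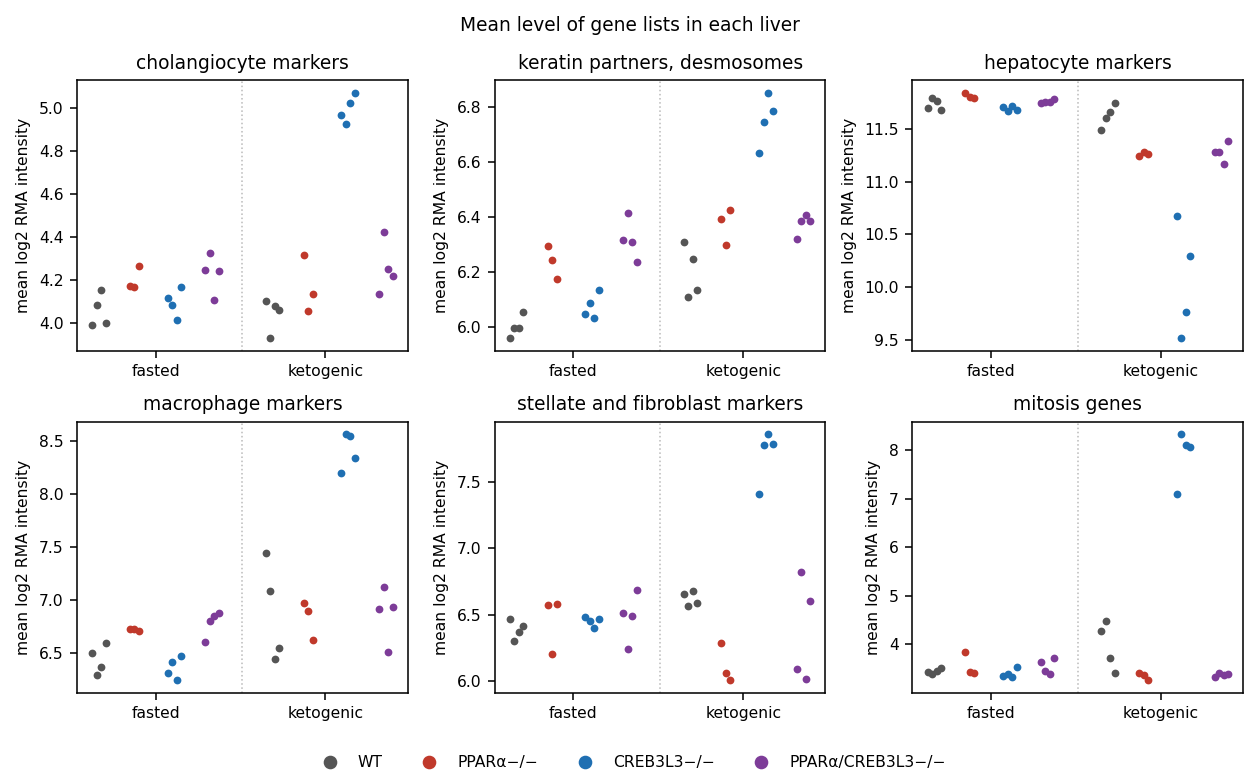
Mean log2 RMA intensity (vertical axis, scaled to each panel) of 6 gene lists in each liver (points), by regimen (horizontal axis) and genotype (colours). In ketogenic CREB3L3−/− livers the cholangiocyte list is at 4.93 to 5.07, the macrophage list at 8.20 to 8.56 and the mitosis list at 7.10 to 8.32, above all other livers, and the hepatocyte list at 9.52 to 10.67 is below them.

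Genes with the pattern most like each member were sought by Pearson's r over the 30 arrays. This was done for members whose group means spanned more than 1 log2 unit on the probe set with the highest mean. Prom1 was left out by this rule, as that probe set, 10521696, spanned 0.22, although 10529824 spanned 1.62. These values describe arrays that share group differences and carry no test. Krt8 was most like Cstb (0.983), the gene of the protease inhibitor cystatin B, Myh9 (0.977), a non-muscle myosin heavy chain, and the tubulin gene Tubb6 (0.972). Krt18 was most like Sh3pxd2b (0.960), Tmem165 (0.956) and Lims1 (0.955). Sox9 was most like E2f7 (0.839), a cell cycle transcription factor, H2bc18 (0.837), a histone gene, and Depdc1b (0.827). Krt19 was most like Gpc3 (0.826), Mboat1 (0.824) and Rrm2 (0.814). Cdh1 was most like Snx7 (0.901), Khdrbs1 (0.897) and Dhx9 (0.892). Krt23 was most like Gm15441 (0.924), a transcript antisense to Txnip, Slc27a1 (0.919), a fatty acid transporter, and Caln1 (0.918).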

How the data were processed

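RNA of 30 livers was hybridised to 1-colour Affymetrix Mouse Gene 1.1 ST arrays. The authors deposited log2 values from Robust Multichip Averaging for 35556 probe sets, which were used without further scaling. By the platform annotation 21218 probe sets have 1 gene symbol, 1881 several and 12457 none, and only those with 1 were named. Group means of all 8 groups were fitted in limma (version 3.58.1, R 4.3.3) with an intensity trend, on 22 residual degrees of freedom. Changed means P under 0.001 and a fold beyond 1.2, the first from the methods of the study and the second from its figure legends, and p-values were adjusted by Benjamini-Hochberg over all probe sets. For gene lists each of 18820 genes was represented by 1 probe set. The named genes are all members, the 3 genes of a list with the smallest P in a comparison, of which some are printed, and the 3 genes with the highest r to a member. Members and lists were chosen with earlier results of these data known. By the labels each sample is the liver of 1 mouse, and the number of arrays limits the precision. Figures were drawn with matplotlib 3.10.9, and the fit was tested on simulated data. Alternatives were other subsets of arrays, a replicate block, array weights, other trends and scalings, adjusted p and leaving out each array.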

Additional observations from a re-analysis of the deposited data

Results flagged for a closer look

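Sox9 in ketogenic PPARα/CREB3L3−/− replicate 3 was far from its group, at 7.38 against 6.02 to 6.21. Epcam in ketogenic WT replicate 2 was below its group, at 3.68 against 3.92 to 3.95. By Dixon's test such a value was found in 2 of 60 combinations of a probe set with a group of 4 livers. Chance alone gives about 3, so these 2 are no more than chance gives. The same livers enter once for each probe set.

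Effects that differed between groups by a test of the difference were the following. The effect of CREB3L3 ablation on the ketogenic diet differed with the PPARα genotype by -2.50 for Krt8, -2.15 for Krt18 and -1.46 for Prom1 on probe set 10529824. The effect of CREB3L3 ablation on the ketogenic diet minus that in the fast was 2.13 for Krt8, 1.90 for Krt18 and 1.43 for Prom1 on probe set 10529824. The effect of PPARα ablation on Krt23 in the ketogenic minus the fasted state was 1.72, with dim PPARα−/− livers in both regimens (means 3.30 and 3.97).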

How the results depend on the processing

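Across the alternatives, 0 values changed sign, and of the 24 single values called changed, 239 of 255 recalculated values were called again, as were 686 of 720 on leaving out 1 array. The most dependent calls were Krt8 and Krt23 in ketogenic PPARα−/−, Krt19 in ketogenic CREB3L3−/− livers and the regimen difference of Krt23. Counts of members called that moved by more than 1.5 times were as follows. For fasted PPARα−/− against WT 1 became 2 with arrays of the same regimen or of the compared groups only, which added Krt18. For fasted double knockout against WT 1 became 3 with the same regimen or adjusted p, which added Krt8 and Krt18. It became 2 with the compared groups, array weights or the replicate block, which added Krt8. For ketogenic PPARα−/− against WT 2 became 0 with the same regimen or compared groups and 1 with the replicate block or repeated quantile normalization. For ketogenic double knockout against WT 2 became 1 with the compared groups. For fasted double knockout against CREB3L3−/− 1 became 2 with the same regimen, compared groups, replicate block, array weights or adjusted p. For ketogenic double knockout against PPARα−/− 0 became 1 with the same regimen, compared groups or replicate block. The regimen difference of the PPARα effect went from 1 to 0 with the compared groups, replicate block, array weights, no trend or a robust trend, that of the CREB3L3 effect from 3 to 6 with adjusted p, and that of the double knockout from 0 to 1 with array weights and 2 with adjusted p. For ketogenic against fasted WT 0 became 1 with median centring and 2 with adjusted p. Smaller moves were between 4 and 8 for ketogenic CREB3L3−/− against WT (6 as reported), 2 and 4 for the ketogenic interaction (3 as reported), and 3 and 5 for ketogenic double knockout against CREB3L3−/− (4 as reported). Ketogenic PPARα−/− against WT reached 3 with adjusted p, and the regimen difference of the CREB3L3 effect was 4 with the replicate block and 2 without the probe sets below the median. Without the probe sets below the median, Prom1 probe set 10529824 and other dim members cannot be called, so that part of a lower count follows from the rule. The causes of the other moves were not tested.

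Leaving out 1 array gave 1 to 3 calls for fasted double knockout against WT, 0 to 2 for ketogenic PPARα−/−, 5 to 6 for ketogenic CREB3L3−/−, 2 to 4 for ketogenic double knockout, 3 to 4 for the ketogenic interaction, 1 to 2 for fasted double knockout against CREB3L3−/−, and 0 to 1, 3 to 4 and 0 to 1 for the regimen differences of the PPARα, CREB3L3 and double knockout effects. For WT between regimens it gave 0 to 1. The 4 calls for the ketogenic double knockout came without WT ketogenic replicate 1, which added Krt8 and Krt18.

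Replicate numbers did not pair the samples: same-numbered livers of different groups had a median correlation of 0.00331 (range -0.111 to 0.120), and 8 of 30 correlated best with their own number. With the replicate block 6 members were called in ketogenic CREB3L3−/− livers and 4 for the ketogenic interaction.

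Median centring moved the share of higher calls from 56.8% to 33.3% in fasted CREB3L3−/−, from 60.0% to 45.2% in fasted double knockout and from 59.5% to 78.8% in WT between regimens. Krt7, Krt19, Epcam, Prom1 and, without PPARα, Krt23 lay near or below the array median.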

Other observations

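All 12 measured T and NK cell markers lay below the median of all probe sets on average. In ketogenic CREB3L3−/− livers 0 were called, against 16.7% of all genes higher and 11.9% lower. Their median difference was -0.35 on the log2 scale. The list mean was 2.95 to 3.35 in these livers, against 3.41 to 3.75 in WT on the diet, without overlap. Of 7 measured B and plasma cell markers, all below the median of all probe sets, 2 were lower in ketogenic CREB3L3−/− livers, against 11.9% of all genes. These were Cd79a, a chain of the B cell receptor complex, at -1.10 and Pax5, a B cell transcription factor, at -0.64. The mean level of the B and plasma cell list was 2.99 to 3.08 in these livers, against 3.33 to 3.58 in WT on the diet. PPARα−/− livers on the diet were at 2.86 to 3.10 and double knockout livers at 2.88 to 3.02. Of 7 mesothelium and 7 exocrine pancreas markers, 0 changed in ketogenic CREB3L3−/− livers, against 16.7% of all genes higher and 11.9% lower. Mean levels there were 3.48 to 3.96 and 2.73 to 2.96. The exocrine pancreas list stood at 4.99 in fasted WT replicate 4, against 2.95, 3.07 and 3.14 in the other fasted WT livers. That liver also had the lowest fasted WT values of Cdh1 (7.16), Sox9 (5.93) and Krt18 (9.69). A relation between these levels was not tested.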
